A study of Mus musculus with 26 samples.

Results

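The genes described here are the 10 that encode the muscle acetylcholine receptor and the proteins that assemble it at the neuromuscular junction, taken by symbol from 53465 genes listed for injured mouse muscle and 55487 genes listed for C2C12 cells. They are the 5 receptor subunit genes Chrna1, Chrnb1, Chrnd, Chrng and Chrne, the clustering genes Lrp4, Musk, Dok7 and Rapsn, and Colq, and all 10 were listed in both tables. The study compared RNA from regenerating muscle over time and from C2C12 cells, a mouse myoblast line, with and without repression of Mettl3, the enzyme that writes N6-methyladenosine on RNA. Tibialis anterior (TA) muscle of 6-week-old male C57BL/6J mice, as the methods name them, was injured with 25 µL of 10 µM cardiotoxin (CTX), a snake venom toxin that destroys fibres, and taken on days 1, 3, 5 and 10, with day 0 as the reference. The labels call that reference day 0 whereas the methods describe saline injection as control, and whether day 0 muscle had received saline is unclear. The Cas9M3 cells were puromycin-selected C2C12 lines that carried, by lentivirus, a KRAB repressor fused to catalytically dead Cas9 under a human ubiquitin C promoter together with guides to the Mettl3 promoter, and the methods call this a knockdown. What the Ctrl line carried is not given in the labels. Ctrl and Cas9M3 cells were taken in growth medium with 10% fetal bovine serum (GM) and on day 3 in differentiation medium with 2% horse serum (DM3). Each of the 9 groups held 2 libraries, and paired values below are given as replicate 1 and then replicate 2.

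The acetylcholine receptor of skeletal muscle is a ring of subunits that opens on binding acetylcholine from the motor nerve. Fetal and denervated muscle uses the gamma subunit encoded by Chrng, while innervated adult muscle uses the epsilon subunit encoded by Chrne, and the alpha, beta and delta subunits are shared. Agrin from the nerve acts through Lrp4 and the receptor kinase MuSK, with Dok7 as its cytoplasmic activator, and rapsyn then clusters receptors beneath the nerve ending. In embryonic muscle the subunit genes are driven by myogenic factors through E-boxes (CANNTG), and transcription near the nerve ending works through an N-box (CCGGAA) bound by Ets factors.

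The promoter sequences of the fetal subunit, the adult subunit and the shared alpha subunit are shown because these are the genes whose levels moved furthest in either direction after injury. They are the 250 bases before the start of the gene in RefSeq on GRCm38.p6, written 5′ to 3′ on the gene's strand, with every CANNTG and every CCGGAA, on either strand, in capitals. RefSeq windows were matched for 6 of the 10 genes, with 7 windows in all, and none was matched for Chrnd, Rapsn, Lrp4 or Colq.
Chrng, chr1:87205561-87205810 (+): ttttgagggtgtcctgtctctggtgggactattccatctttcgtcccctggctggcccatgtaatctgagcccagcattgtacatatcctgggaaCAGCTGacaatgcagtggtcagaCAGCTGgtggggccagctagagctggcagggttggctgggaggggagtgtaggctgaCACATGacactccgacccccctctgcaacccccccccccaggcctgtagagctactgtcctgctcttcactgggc
Chrne, chr11:70619195-70619444 (-): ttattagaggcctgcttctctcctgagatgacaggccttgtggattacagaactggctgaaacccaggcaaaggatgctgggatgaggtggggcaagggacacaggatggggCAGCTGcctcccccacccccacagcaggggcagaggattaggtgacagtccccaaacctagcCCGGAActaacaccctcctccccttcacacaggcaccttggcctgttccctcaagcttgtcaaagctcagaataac
Chrna1, chr2:73580339-73580588 (-): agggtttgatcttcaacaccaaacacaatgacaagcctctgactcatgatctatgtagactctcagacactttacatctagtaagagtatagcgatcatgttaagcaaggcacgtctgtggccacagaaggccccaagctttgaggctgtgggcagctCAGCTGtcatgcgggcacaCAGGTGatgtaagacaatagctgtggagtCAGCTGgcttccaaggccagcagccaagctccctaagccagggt
The Chrng window held CANNTG at 155, 132 and 75 bases before the start, of which the first 2 were CAGCTG, and it held no CCGGAA. The Chrna1 window held CANNTG at 92, 73 and 44 bases, of which those at 92 and 44 were CAGCTG and that at 73 was CACCTG read on the other strand. The Chrne window held 1 CANNTG at 138 bases, which read CAGCTG, and 1 CCGGAA at 76 bases. Over all RefSeq windows of this length, 66.22% held at least 1 CANNTG, 12.21% held at least 3, 1.26% held at least 2 CAGCTG and 12.03% held CCGGAA. The Musk and Chrnb1 windows, not shown, also held 3 CANNTG each. Letters that match a motif describe these windows only. In GENCODE M21 the Chrng window lay within the gene's annotated span with 1 base in an exon, the last 22 bases of the Chrne window were a 5′ untranslated exon of Chrne, and no gene was annotated over the Chrna1 window. Chrng spans chr1:87204657-87212694 next to Chrnd at chr1:87190607-87200070, both on the plus strand. Chrne spans chr11:70614883-70619216 on the minus strand.

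The values are FPKM, read fragments normalized to exon length and to a scale for each library. The steps in low values implied 14170000 to 18820000 reads on genes per muscle library and 14230000 to 29570000 per cell library. In muscle the scale did not follow the reads on genes. A read on 1 kb of exon counted as 0.0803 FPKM in the first day 0 library, with 16780000 reads on genes. In the first day 3 library it counted as 0.0507 FPKM, with 14330000 reads on genes. Xist, the RNA of the inactive X chromosome, was 5.77 to 10.0 FPKM in both day 0 libraries, both day 10 libraries and the second day 3 library, and 0.0170 to 0.152 FPKM in the other 5 muscle libraries, although the methods name male mice. Results in muscle were therefore also computed with a term for Xist. In the cells Mettl3 was 4.68 to 5.65 FPKM in the 4 Ctrl libraries and 0.0805 to 0.331 FPKM in the 4 Cas9M3 libraries. Summed FPKM of 7 adult fibre markers was 49654 to 55453 on day 0 and 12132 to 15551 on day 3. Over the same days the 4 regenerating fibre markers went from 11.4–32.2 to 672–1191 and the 4 macrophage markers from 12.2–21.6 to 328–339. On day 5 the regenerating fibre markers still summed to 347 to 455. In the cells the same 4 regenerating fibre markers summed to 213 to 246 FPKM in Ctrl DM3 and 3.92 to 5.41 in Cas9M3 DM3. Most of the Ctrl DM3 sum was Mymk, at 199 and 180 FPKM, and Myh8 did not exceed 0.0673 FPKM in any cell library. The 5 Schwann cell markers summed to 4.05 to 18.7 FPKM in muscle and 0.172 to 0.618 FPKM in the cells, where Sox10 was at 0 in all 8 libraries. In bulk RNA, fewer cells of a type and less RNA per cell cannot be told apart. The labels do not say that replicates came from separate animals or cultures, so p-values measure the spread between these libraries, which may be technical.

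On day 3 after injury the fetal subunit gene Chrng and the shared genes Chrna1 and Chrnd rose steeply, Musk, Chrnb1, Rapsn and Colq rose less, and the adult subunit gene Chrne fell. Of the 10 genes, 8 were called against day 0, 7 higher and 1 lower, where 48.8% of the 16753 genes tested were called. A call here is an adjusted p of at most 0.05 from limma on log2(FPKM + 0.1). The median log2 difference of the 10 genes was 0.80, against 0.0075 over all genes tested.

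Chrng was 0.135 and 1.01 FPKM on day 0, 2.28 and 0.512 on day 1, 53.9 and 90.3 on day 3, 3.57 and 1.95 on day 5, then 0.687 and 1.49 on day 10. Both day 3 libraries stood far above the 8 others, while days 0, 1 and 10 overlapped. Its log2 difference between day 3 and day 0 was 7.10 ± 0.86 (SE, adjusted p = 0.000701).

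Chrna1, which encodes the subunit that carries the main acetylcholine binding surface, was 5.62 and 10.0 FPKM on day 0, 20.4 and 6.63 on day 1, 122 and 161 on day 3, 19.7 and 14.9 on day 5, then 8.68 and 14.3 on day 10. Day 3 again did not overlap any other day, and its level was 4.20 ± 0.53 higher than on day 0 on the log2 scale (adjusted p = 0.000789). Chrnd, the delta subunit gene, was 1.88 and 2.85 FPKM on day 0, 10.1 and 3.50 on day 1, 25.5 and 36.9 on day 3, 5.52 and 5.74 on day 5, then 2.53 and 5.11 on day 10. The 2 day 3 libraries were its highest, and the log2 difference from day 0 was 3.67 ± 0.51 (adjusted p = 0.00119).

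Chrnb1, the beta subunit gene, followed another course and stood highest on day 5. It was 22.5 and 27.7 FPKM on day 0, 36.2 and 28.4 on day 1, 38.0 and 49.8 on day 3, 53.6 and 57.5 on day 5, then 38.7 and 42.7 on day 10. All 8 injured libraries were above both day 0 libraries. Day 3 was 0.80 ± 0.19 above day 0 on the log2 scale (adjusted p = 0.0103), and the day 5 difference was 1.15 ± 0.19 (adjusted p = 0.0125).

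Chrne, the adult subunit gene, was lowest on day 3, when Chrng, Chrna1 and Chrnd were highest. Its level was 16.8 and 8.73 FPKM on day 0, 4.21 and 6.85 on day 1, 4.05 and 1.17 on day 3, 7.84 and 9.60 on day 5, then 17.3 and 13.7 on day 10. Both libraries of days 1 and 3 were below both of day 0, and days 0 and 10 overlapped. On day 3 it fell by 2.41 on the log2 scale (SE 0.55, adjusted p = 0.00888), and on day 10 it was 2.75 ± 0.55 above day 3 (adjusted p = 0.00717).

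**Figure D1:**
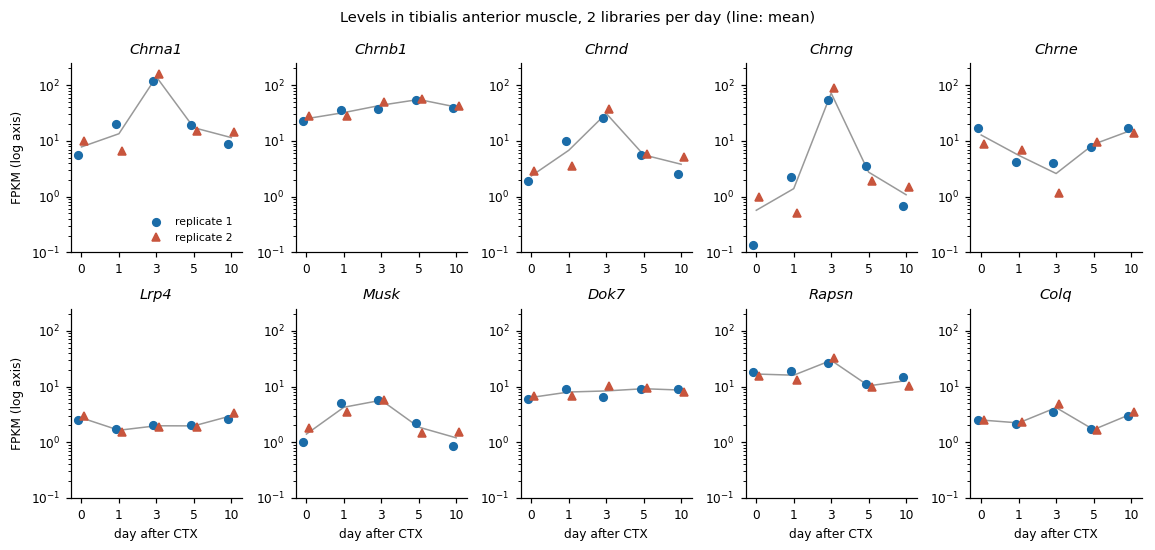
FPKM of the 10 genes in muscle on a log axis, by day after CTX (days evenly spaced), with 1 point per library and a line through the day means. Chrng, Chrna1 and Chrnd peak on day 3, Chrne is lowest there, and Lrp4 and Dok7 stay within narrow ranges.

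The ratio of the fetal to the adult subunit, Chrng to Chrne, reversed with injury and returned. It was 0.00803 and 0.115 on day 0, with 95% counting intervals of 0.00320 to 0.0167 and 0.0842 to 0.156 (Clopper-Pearson, from the reads implied by the FPKM steps). It was 0.541 and 0.0748 on day 1, 13.3 and 77.2 on day 3, 0.455 and 0.203 on day 5, then 0.0396 and 0.109 on day 10. Only the 2 day 3 libraries had a higher level of Chrng than of Chrne. The day 3 intervals, 11.2 to 15.9 and 56.6 to 108, overlapped neither each other nor any other day. Behind the ratios were 7 and 56 Chrng reads against 354 and 197 Chrne reads on day 0, and 4429 and 7603 against 135 and 40 on day 3. These intervals cover counting error only, and replicates of a day differed by more than their intervals.

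On the log2 scale with 0.1 added to each level, the mean ratio of day 0 was −4.58 ± 2.24 (SD, n = 2), that of day 1 −2.18 ± 1.87, that of day 3 4.93 ± 1.73, that of day 5 −1.68 ± 0.80 and that of day 10 −3.79 ± 0.96. The days differed in an exact permutation test of the F statistic over 945 assignments of the 10 libraries (p = 0.0413, where the smallest p possible is 0.00106). The ratios of days 0, 1 and 10 overlapped, those of day 5 lay within the range of day 1 and above both ratios of day 0 and of day 10, and those of day 3 lay above all others. Leaving out the first library of day 0, 1, 5 or 10 or the second of day 5 gave exact permutation p-values of 0.0508 to 0.0720. A pair of days alone cannot reach a two-sided p below 0.333.

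**Figure D2:**
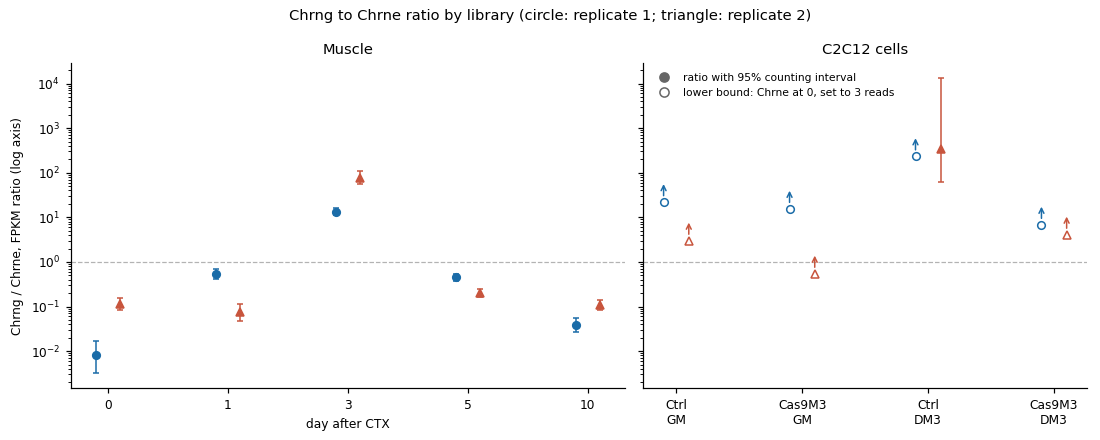
Ratio of Chrng to Chrne FPKM by library on a log axis, for muscle by day (left) and C2C12 groups (right), with bars for 95% counting intervals and open points with arrows for lower bounds where Chrne was at 0. Day 3, at 13.3 and 77.2, is the only day above a ratio of 1.

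The make-up of the subunit transcripts shifted as a whole. Summed over the 5 subunit genes, the level was 47.0 and 50.4 FPKM on day 0, 243 and 340 on day 3, then 67.9 and 77.2 on day 10. Chrnb1 made up 47.9% and 55.1% of the sum on day 0 and 15.6% and 14.7% on day 3, while Chrna1 went from 12% and 19.9% to 50.0% and 47.5%. The ratio of Chrna1 to Chrnb1 was 0.250 and 0.362 on day 0 and 3.20 and 3.24 on day 3. Chrng rose from 0.287% and 2.00% of the sum to 22.2% and 26.6%, and Chrne went from 35.8% and 17.3% to 1.66% and 0.345%. By day 10 Chrnb1 was again the largest share, at 56.9% and 55.2%. These shares are of transcript levels per length and not of assembled receptors.

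**Figure D3:**
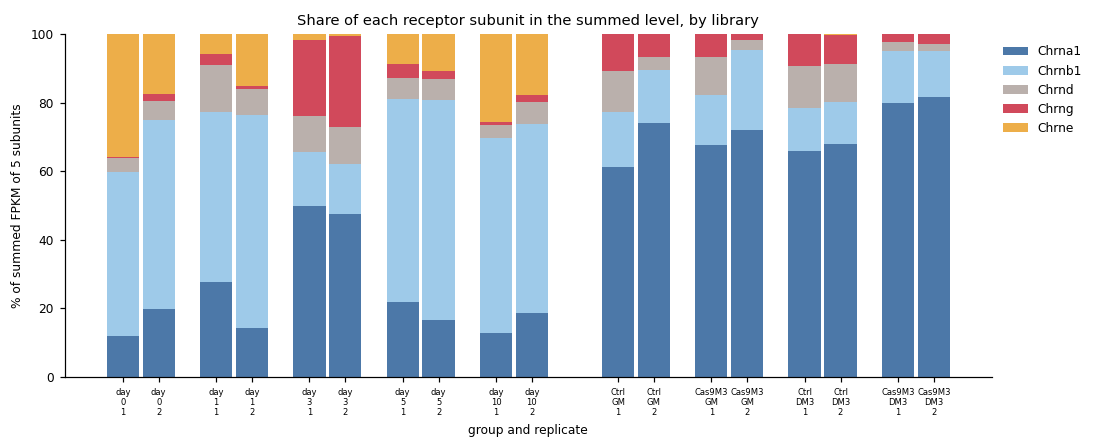
Share of each of the 5 subunit genes in their summed FPKM, with 1 stacked bar per library. Chrnb1 is the largest share on days 0, 1, 5 and 10, and Chrna1 on day 3 and in every C2C12 group.

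Among the clustering genes, Musk, which encodes the receptor kinase, was 0.999 and 1.80 FPKM on day 0, 5.03 and 3.47 on day 1, 5.74 and 5.62 on day 3, 2.24 and 1.49 on day 5, then 0.865 and 1.54 on day 10. Days 1 and 3 lay above all other days. It rose by 2.00 ± 0.37 on the log2 scale by day 3 (adjusted p = 0.00352), and its day 1 difference of 1.56 ± 0.37 lay just above the threshold (adjusted p = 0.050).

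Rapsn, the gene of the receptor-clustering scaffold rapsyn, was 18.2 and 15.3 FPKM on day 0, 18.8 and 13.2 on day 1, 26.1 and 32.9 on day 3, 10.9 and 9.65 on day 5, then 15.1 and 10.4 on day 10. Its day 3 libraries were its highest, with a log2 difference of 0.81 ± 0.24 from day 0 (adjusted p = 0.0268), and day 5 was 1.5 lower than day 3 (adjusted p = 0.0113). Rapsn shares 4 exon bases with Gm13778 on the opposite strand, and whether counting used strand is not given in the sources used here.

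Dok7, the activator of MuSK, was 5.91 and 6.83 FPKM on day 0, 9.18 and 6.77 on day 1, 6.47 and 10.2 on day 3, 8.90 and 9.37 on day 5, then 9.17 and 8.10 on day 10. No comparison of days called it. Lrp4, the agrin receptor, was 2.52 and 2.96 FPKM on day 0, 1.75 and 1.54 on day 1, 2.04 and 1.92 on day 3, 2.03 and 1.90 on day 5, then 2.57 and 3.40 on day 10. Days 1, 3 and 5 lay below days 0 and 10 in FPKM, but only day 10 against day 3 was called, with a log2 difference of 0.56 ± 0.18 (adjusted p = 0.0438). The implied reads of Lrp4 were 330 and 415 on day 0 and 422 and 407 on day 3, so the order of these 2 days depends on the scale of the libraries.

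Colq, which encodes the collagen tail that anchors acetylcholinesterase in the synaptic basal lamina, was 2.53 and 2.48 FPKM on day 0, 2.15 and 2.30 on day 1, 3.52 and 4.85 on day 3, 1.74 and 1.63 on day 5, then 2.94 and 3.47 on day 10. Day 3 was 0.70 ± 0.18 above day 0 on the log2 scale (adjusted p = 0.0157), and day 5 was 1.25 below day 3 (adjusted p = 0.00872). Of its exon bases, 199 are shared with Gm49387 on the same strand, so reads there could belong to either gene.

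Against day 0, the other days called few of these genes. None of the 10 was called on day 1, where 6% of all genes were, and 3 had an unadjusted limma p under 0.05. On day 5 only Chrnb1 was called, where 25.5% of all genes were, and 6 of the 10 had an unadjusted limma p under 0.05. On day 10 none was called, where 0.00597% of all genes were, and only Chrnb1 had an unadjusted p under 0.05, with 38.7 and 42.7 FPKM against 22.5 and 27.7 and a log2 difference of 0.70 (adjusted p = 0.40). The medians of the 10 genes were 0.33, 0.47 and 0.39 on days 1, 5 and 10 on the log2 scale, and those of all genes were within 0.01 of 0.

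The comparisons with day 3, which share its 2 libraries, gave the rise and the return. Between day 1 and day 3, 5 of the 10 genes were called, all higher, where 31.1% of all genes were called: Chrng by 5.85, Chrna1 by 3.58, Chrnd by 2.34, Rapsn by 0.89 and Colq by 0.86 on the log2 scale. Between day 3 and day 5, 6 were called, all lower, where 12.7% of all genes were: Chrng by −4.67, Chrna1 by −3.02, Chrnd by −2.43, Musk by −1.58, Rapsn by −1.5 and Colq by −1.25. Chrne was higher in both day 5 libraries than in both day 3 libraries, without a call (adjusted p = 0.0588). Between day 3 and day 10, 7 were called, where 37.9% of all genes were: Chrng (−5.97), Chrna1 (−3.64), Chrnd (−3.05), Musk (−2.20) and Rapsn (−1.22) lower, and Chrne and Lrp4 higher. The medians of the 10 genes were 0.65, −1.37 and −0.79, against −0.015, −0.012 and −0.014 over all genes tested.

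Only day 3 held both a library with high Xist and 1 with low Xist, so the Xist term rests on those 2 libraries alone. Each day 3 estimate with the term therefore comes from 1 day 3 library. Chrnd between days 1 and 3, for example, was 2.08 both with the term and without the second day 3 library. Days 1 and 5 differed from day 0 in Xist in both libraries, so day and Xist are told apart there only through that pair. With the term, all 8 calls between day 3 and day 0 were kept, where 34.9% of all genes were called. Chrng was at 7.47 (adjusted p = 0.00579), Chrna1 at 4.41 (adjusted p = 0.00638) and Chrne at −3.27 (adjusted p = 0.00466). Chrna1 and Chrng remained of the 5 called between days 1 and 3 (8.17% of all genes), none of the 6 between days 3 and 5, and 6 of the 7 between days 3 and 10 (23.4%), all but Lrp4. The fit with this term called none of all 16753 genes between days 3 and 5. The genes Chrng, Chrna1, Chrnd and Musk kept their day 3 call without any 1 library. Without the first day 0 library those 4 were the only calls, without the second day 0 library Colq and Rapsn were lost, and without the second day 3 library Chrnb1, Colq and Rapsn were lost (adjusted p = 0.0588 to 0.148 for the lost calls). Between days 3 and 5, the 6 calls became 3 without the first day 3 library, with Colq and Rapsn kept and Chrne added, where 3.47% of all genes were called. They became 0 without the second day 3 library (0% of all genes), the first day 5 library (1.77%) or the second day 5 library (0.272%), while Chrng ran from −4.25 to −5.09 over these 4 fits, against −4.67 with all libraries. Between days 1 and 3 the 5 calls became 2, Chrna1 and Chrng, without the second day 3 library, and Rapsn was also lost without the first day 3 or the second day 1 library (adjusted p = 0.0591 and 0.119). Between days 3 and 10, Lrp4 was lost without either day 3 library or the second day 10 library and Rapsn without the second day 3 library (adjusted p = 0.0525 to 0.189). Fitting only the groups compared, Chrne (adjusted p = 0.0696) and Colq (adjusted p = 0.0637) lost their call between day 3 and day 0, and Chrne (adjusted p = 0.0563) and Lrp4 (adjusted p = 0.119) lost theirs between days 3 and 10. Of all genes, 44.7% and 27.0% were called in these 2 fits. They, and each fit above without 1 library, called a smaller share of all genes than the fit with all libraries.

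The call of Chrnb1 on day 5 against day 0 was lost without the first day 0 library (log2 difference 1.0, adjusted p = 0.0875) and without the second day 5 library (1.10, adjusted p = 0.0918). It was also lost with the Xist term (1.54, adjusted p = 0.150), a fit that called 0% of all genes between these days. On day 1, Chrnd and Musk were called without the second day 1 library. That fit also called a larger share of all genes than the fit with all libraries.

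Other genes of the junction did not move in 1 direction. Of 22 further postsynaptic and basal lamina genes, all tested, 12 were called on day 3 against day 0, 5 higher and 7 lower, where 48.8% of all genes were called, with a median log2 difference of −0.023. Sntb1, a syntrophin scaffold of the dystrophin complex, was 0.799 and 0.844 FPKM on day 0 and 8.73 and 11.2 on day 3 (log2 difference 3.44 ± 0.33, adjusted p = 0.000376). Scn4a, the adult muscle sodium channel, was 73.6 and 58.8 FPKM on day 0 and 18.2 and 15.4 on day 3 (−1.97 ± 0.32, adjusted p = 0.00221). Pdzrn3, a ubiquitin ligase that binds MuSK, was 16.1 and 11.9 and then 3.48 and 3.57 (−1.94 ± 0.21, adjusted p = 0.000489). Against day 0 this list had 1 call on day 1 (6% of all genes), 8 on day 5 (25.5%) and 0 on day 10 (0.00597%), and on day 10 3 of its genes had an unadjusted limma p under 0.05.

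Of 8 neuregulin receptor and synaptic transcription factor genes, 6 were tested and 5 were called on day 3 against day 0, where 48.8% of all genes were, with the receptors Erbb2 and Erbb3 higher and the Ets factors Etv4, Etv5 and Gabpa lower. Erbb3 was 1.56 and 2.18 FPKM on day 0 and 9.20 and 15.8 on day 3 (2.65 ± 0.27, adjusted p = 0.000438). Etv5 was 4.64 and 3.56 and then 2.11 and 1.71 (−1.06 ± 0.24, adjusted p = 0.00871). On day 10 none of the 6 was called, and 1 had an unadjusted limma p under 0.05.

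The list of activity-dependent and denervation-responsive genes had 12 of 13 tested and 11 called on day 3 against day 0, 8 higher and 3 lower, where 48.8% of all genes were, with a median log2 difference of 2.41. The 3 lower genes were Hdac4, a histone deacetylase, and the muscle ubiquitin ligases Fbxo32 and Trim63. Myog, the myogenic factor that binds E-boxes, was 7.73 and 11 FPKM on day 0, 54.1 and 23.9 on day 1, 262 and 234 on day 3, 45.4 and 39.1 on day 5, then 15.1 and 24.1 on day 10. Its day 3 difference of 4.73 ± 0.39 on the log2 scale (adjusted p = 0.000285) was on the same day as the peak of Chrng. Ncam1, an adhesion protein that denervated fibres spread over their surface, was 0.964 and 1.63 FPKM on day 0 and 21.8 and 40.6 on day 3 (4.46 ± 0.39, adjusted p = 0.000324). The list had 4 calls on day 1 against day 0 (6% of all genes), 6 on day 5 (25.5%) and 0 on day 10 (0.00597%), and on day 10 2 of its genes had an unadjusted limma p under 0.05.

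Of the 11 nicotinic subunit genes that do not form the muscle receptor, 3 passed the filter in muscle and none in the cells, where the highest value was 0.450 FPKM for Chrnb2. Chrna10 reached 12.4 FPKM in muscle and was 12.4 and 7.52 FPKM on day 0, 5.26 and 5.27 on day 1, 1.35 and 1.05 on day 3, 1.26 and 0.540 on day 5, then 5.22 and 4.36 on day 10. It fell by 2.92 on the log2 scale on day 3 (SE 0.37, adjusted p = 0.000823), and its day 5 libraries were still below both libraries of days 0, 1 and 10. Chrnb2 was 0.450 and 0.447 FPKM on day 0 and 1.18 and 1.38 on day 3, a log2 difference of 1.33 (adjusted p = 0.0126), and it was 1.17 above day 0 on day 5 (adjusted p = 0.0382).

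Over the 10 muscle libraries, the genes whose log2 levels followed Chrng most closely among 12275 searched were Dclk1 (Pearson r = 0.991), Apbb1 (0.989), Tubb2b (0.988), Arap1 (0.987) and Aif1l (0.986). Those most like Chrne were Gm20304 (0.987), 4930544D05Rik (0.979), Rpa1 (0.978), Gm16537 (0.968) and Arrdc3 (0.963). The 10 points share 5 days and the table's scaling, so these values only describe likeness.

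**Figure D4:**
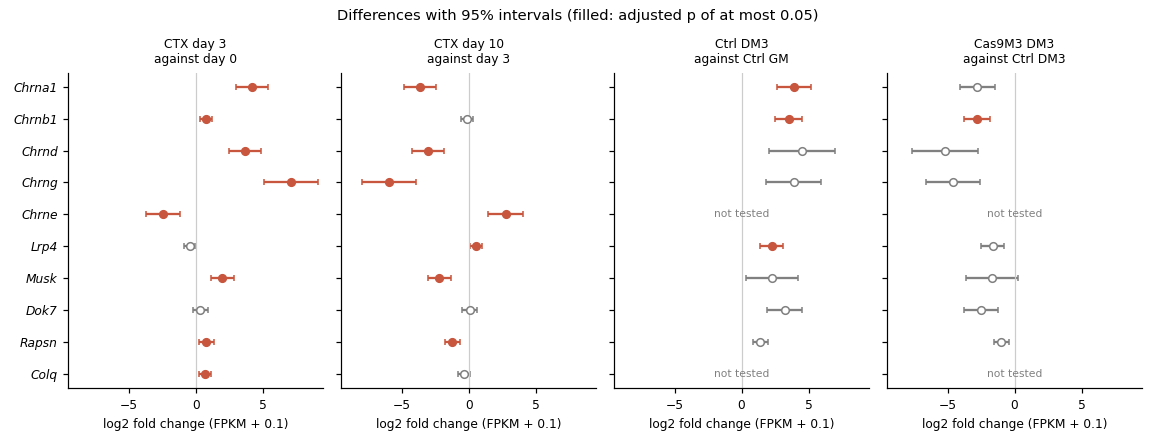
Log2 differences with 95% intervals for the 10 genes in 4 comparisons, with filled points for calls. Day 3 against day 0 and day 10 against day 3, which share the day 3 libraries, mirror each other for Chrng, Chrna1, Chrnd and Chrne, and in the cells the 8 tested genes lie above 0 in Ctrl DM3 against Ctrl GM and below 0 in Cas9M3 DM3 against Ctrl DM3.

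In C2C12 cells the receptor genes were low in growth medium and rose as Ctrl cells differentiated. Cas9M3 cells on day 3 of differentiation stayed far below Ctrl cells at the same stage. Chrne was at 0 in 7 of the 8 libraries and at 0.0355 FPKM, or 1 read, in the second Ctrl DM3 library, so these cells had the fetal subunit gene with almost no reads of the adult subunit gene. Colq was 0.108 to 0.519 FPKM in all 8 libraries, and neither gene passed the filter on low values, which left 8 of the 10 genes to test.

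Chrna1 was 7.04 and 6.19 FPKM in Ctrl GM, 8.96 and 2.45 in Cas9M3 GM, 106 and 95.7 in Ctrl DM3, and 15.2 and 13.8 in Cas9M3 DM3. Ctrl DM3 stood above every other library. Chrnb1 was 1.85 and 1.31 in Ctrl GM, 1.90 and 0.796 in Cas9M3 GM, 20.1 and 17.4 in Ctrl DM3, and 2.92 and 2.26 in Cas9M3 DM3. Both DM3 groups lay above both GM groups for this gene, with Cas9M3 DM3 close to them.

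Chrnd was 1.39 and 0.315 FPKM in Ctrl GM, 1.47 and 0.0994 in Cas9M3 GM, 19.4 and 15.8 in Ctrl DM3, and 0.480 and 0.311 in Cas9M3 DM3. Chrng was 1.22 and 0.547 in Ctrl GM, 0.868 and 0.0523 in Cas9M3 GM, 15.0 and 12.1 in Ctrl DM3, and 0.431 and 0.491 in Cas9M3 DM3. For both genes Cas9M3 DM3 lay within the range of the GM libraries.

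Musk was 2.18 and 0.658 FPKM in Ctrl GM, 3.49 and 0.750 in Cas9M3 GM, 7.79 and 4.90 in Ctrl DM3, and 2.19 and 1.53 in Cas9M3 DM3. Dok7 was 0.419 and 0.0969 in Ctrl GM, 0.556 and 0.586 in Cas9M3 GM, 3.05 and 2.70 in Ctrl DM3, and 0.302 and 0.573 in Cas9M3 DM3. The Ctrl DM3 libraries were the highest for both. Lrp4 was 5.26 and 7.33 FPKM in Ctrl GM, 4.99 and 8.37 in Cas9M3 GM, 38.7 and 23.4 in Ctrl DM3, and 9.77 and 9.39 in Cas9M3 DM3. Rapsn was 20.3 and 19.0 in Ctrl GM, 17.9 and 12.7 in Cas9M3 GM, 46.4 and 57.5 in Ctrl DM3, and 23.4 and 28.6 in Cas9M3 DM3. Rapsn was thus the highest of the 10 genes per length in all GM and Cas9M3 DM3 libraries and second to Chrna1 in Ctrl DM3.

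**Figure D5:**
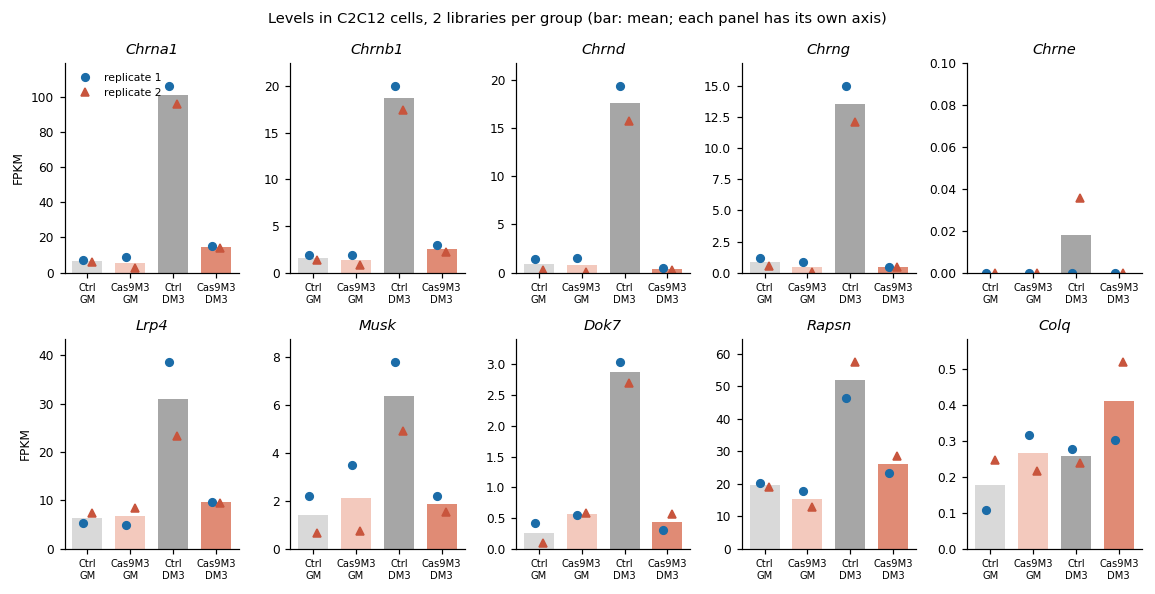
FPKM of the 10 genes in the 4 C2C12 groups, with bars for means, points for the 2 libraries and a separate linear axis for each gene. Ctrl DM3 is the highest group for 8 genes, from Chrna1 at 106 and 95.7 to Dok7 at 3.05 and 2.70, and Chrne and Colq do not exceed 0.0355 and 0.519 FPKM.

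From GM to DM3 in Ctrl cells, 3 of the 8 genes were called, all higher, where 1.14% of 13824 genes were: Chrna1 by 3.91 ± 0.54 on the log2 scale (adjusted p = 0.0394), Chrnb1 by 3.50 ± 0.41 (adjusted p = 0.0285) and Lrp4 by 2.26 ± 0.35 (adjusted p = 0.0479). All 8 were higher in both DM3 libraries than in both GM libraries, with a median difference of 3.36 against −0.021 over all genes. Libraries with the same replicate number deviated together in this table. With the replicate number as a block, 7 of the 8 genes were called, where 2.97% of all genes were, with Chrnd at 4.49 (adjusted p = 0.0380), Chrng at 3.88 (adjusted p = 0.0477), Dok7 at 3.21 (adjusted p = 0.0456) and Rapsn at 1.39 (adjusted p = 0.0456) added. Musk, at 2.26, was not called by either fit (adjusted p = 0.222 and 0.0559 with the block). Without the first Ctrl GM library all 8 were called, where 27.0% of 13665 genes were. Without the second Ctrl GM library none was, where 1.04% of all genes were, and without either Ctrl DM3 library none was, where 0% of all genes were. Fitting only these 2 groups called none of the 8 (adjusted p = 0.162 to 0.250 for the 3 genes) and 0% of all genes.

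Between Cas9M3 DM3 and Ctrl DM3, only Chrnb1 was called, where 1.98% of all genes were, and it fell by 2.82 on the log2 scale (SE 0.41, adjusted p = 0.0337). All 8 genes were lower in both Cas9M3 libraries than in both Ctrl libraries, and the median difference was −2.65 against −0.046 over all genes. The largest differences were in Chrnd (−5.17, 95% interval −7.65 to −2.70, adjusted p = 0.0673) and Chrng (−4.60, −6.64 to −2.56, adjusted p = 0.0568). Chrna1 (−2.79, adjusted p = 0.0645), Dok7 (−2.51, adjusted p = 0.0785), Lrp4 (−1.64, adjusted p = 0.0780), Rapsn (−1.0, adjusted p = 0.0928) and Musk (−1.70, adjusted p = 0.349) were not called. With the replicate block, 4 were called, where 3.65% of all genes were: Chrnb1 (adjusted p = 0.0159), Chrnd (adjusted p = 0.0247), Chrng (adjusted p = 0.0297) and Chrna1 (adjusted p = 0.0367). Without any 1 of the 4 libraries none of the 8 was called, and none of the 13610 to 13663 genes tested (0%). Fitting only these 2 groups called all 8, where 19.1% of all genes were. Over the same libraries the summed regenerating fibre markers were lower as well. So was the sum of the myoblast markers, at 136 to 137 FPKM in Ctrl DM3 and 17.2 to 18.9 in Cas9M3 DM3, against 7.41 to 18.3 in Ctrl GM. Most of the Ctrl DM3 sum was Myog, at 89.1 and 83.3 FPKM against 3.50 and 2.28 in Cas9M3 DM3. Myf5 was 17.9 and 21.8 against 10.8 and 10.8, and Pax7 did not exceed 0.0373 in any cell library. The part of these markers in the differences was not tested.

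The ratio of Chrna1 to Chrnb1 was 5.30 and 5.49 in Ctrl DM3 and 5.21 and 6.12 in Cas9M3 DM3, while Chrnd stood apart. Chrna1 was 5.48 and 6.07 times the level of Chrnd in Ctrl DM3 and 31.7 and 44.5 times in Cas9M3 DM3, and Chrnd went from 12.1% and 11.2% of the subunit sum to 2.52% and 1.84%. In GM that ratio was 5.08 and 19.6 in Ctrl and 6.08 and 24.6 in Cas9M3.

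In growth medium none of the 8 genes was called between Cas9M3 and Ctrl, where 0% of all genes were, and none had an unadjusted limma p under 0.05. The median difference was −0.34. The 95% intervals were wide, from −2.96 to 1.99 for Chrnd and −3.30 to 0.77 for Chrng on the log2 scale, so differences within these intervals are not excluded. In both lines, 7 of the 9 genes above 0 were higher in the first library, by up to 16.6-fold for Chrng in Cas9M3 GM and 4.40-fold for Chrnd in Ctrl GM. Myog moved the same way, at 11.1 and 2.70 FPKM in Ctrl GM and 12.7 and 0.182 in Cas9M3 GM, and its part in the spread was not tested.

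From GM to DM3 in Cas9M3 cells none of the 8 was called, where 0.0289% of all genes were, and 3 had an unadjusted limma p under 0.05. Chrna1 was higher in both DM3 libraries by 1.61 on the log2 scale (95% interval 0.30 to 2.91, adjusted p = 0.296), and Chrng differed by 0.54 (−1.49 to 2.58). The difference of the 2 stages, Cas9M3 against Ctrl on DM3 minus the same in GM, was below 0 for all 8 genes with a median of −2.41, and it ran from −4.68 for Chrnd and −3.58 for Dok7 to −0.62 for Rapsn. None was called (adjusted p = 0.283 to 0.65), nor was any of all 13824 genes (0%), and 6 of the 8 had an unadjusted limma p under 0.05. With the replicate block the adjusted p-values were 0.180 to 0.461.

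The Chrng to Chrne ratio in the cells is a lower bound in 7 libraries, with Chrne set to 3 reads in each. It was at least 21.8 and 2.98 in Ctrl GM, at least 15.4 and 0.541 in Cas9M3 GM, at least 232 in the first Ctrl DM3 library, and at least 6.77 and 4.06 in Cas9M3 DM3. In the second Ctrl DM3 library it was 339, with a counting interval of 60.7 to 13421 from 1 Chrne read. Since Chrne was near 0 throughout, the order of the bounds followed Chrng and depth. Even so, 6 of the 7 bounds were above 1, whereas in muscle only day 3 had a ratio above 1. The tables were scaled separately, but each ratio is taken within a library.

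With 0.1 added to each level, the mean log2 ratio was 3.21 ± 0.72 (SD, n = 2) in Ctrl GM, 1.94 ± 1.89 in Cas9M3 GM, 6.86 ± 0.53 in Ctrl DM3 and 2.49 ± 0.11 in Cas9M3 DM3. The 4 groups were not separated by an exact permutation test over 105 assignments (p = 0.0952, smallest possible 0.00952), or by permuting within replicate numbers (exact p = 0.125). With Chrne at or near 0, these values are set by Chrng over the added 0.1, so the tests restate Chrng. Permuting medium within lines, the ratio was 2.10 higher in DM3 than in GM (exact two-sided p = 0.167, smallest possible 0.0556). Permuting lines within media, it was lower in Cas9M3 than in Ctrl, with a log2 difference of −2.82 (exact two-sided p = 0.111, smallest possible 0.0556), so neither of these 2 tests could have passed 0.05.

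Of the related lists in the cells, the 18 tested postsynaptic and basal lamina genes gave 1 call from GM to DM3 in Ctrl cells, where 1.14% of all genes were called. It was Pdzrn3, at 4.48 and 3.10 FPKM in Ctrl GM and 13.1 and 11.6 in Ctrl DM3 (log2 difference 1.70 ± 0.26, adjusted p = 0.0461). In Cas9M3 DM3 it was 6.17 and 6.43 FPKM. The 6 tested neuregulin and transcription factor genes gave no call in any comparison of the cells, and 1 had an unadjusted limma p under 0.05 between Cas9M3 DM3 and Ctrl DM3. Erbb2, the neuregulin co-receptor, was 12 and 7.81 FPKM in Ctrl GM, 10.2 and 8.35 in Ctrl DM3, and 9.53 and 10.7 in Cas9M3 DM3. Of 10 tested activity-dependent genes, 2 were called higher in Ctrl DM3 than in Ctrl GM (1.14% of all genes) and 2 lower in Cas9M3 DM3 than in Ctrl DM3 (1.98%), Myod1 among them in both. Myod1, the myogenic factor that binds E-boxes, was 2.59 and 2.50 FPKM in Ctrl GM, 30.5 and 31.2 in Ctrl DM3, and 4.55 and 4.17 in Cas9M3 DM3, a log2 difference of −2.80 ± 0.41 between the lines on DM3 (adjusted p = 0.0337).

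Over the 8 cell libraries, the genes most like Chrng among 11541 searched were Mss51 (Pearson r = 0.994), Jsrp1 (0.993), Ets2 (0.993), Tnnt1 (0.992) and Ctrb1 (0.991). The 8 points share 4 groups, and the pattern is that of high Ctrl DM3 values. No such search was made for Chrne in the cells, where 7 of 8 values were 0.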

How the data were processed

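RNA from 10 muscle and 8 C2C12 libraries was sequenced. The authors mapped the reads to GRCm38 using HISAT2 and assigned them to genes using featureCounts, and they deposited FPKM values that the fpkm function of DESeq2 returned. Because the authors scaled the 2 tables apart, tests stayed within a table. A gene entered the test if 2 or more libraries reached 0.5 FPKM, which held for 16753 genes in muscle and 13824 in the cells. Values were log2(FPKM + 0.1), on which fold changes understate those of low genes. All groups of a table entered 1 linear model in limma 3.58.1 (R 4.3.3; lmFit, then eBayes with trend), and p-values were Benjamini-Hochberg adjusted over all genes tested. The value of 1 read was taken from steps in the low values with GENCODE M21 exon lengths, and 97.0% to 98.91% of these values were whole within 0.05. Ratios were tested by exact permutation with Python 3.11.15 and scipy 1.17.1. The fit was tested on simulated data.

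The 10 genes and the related lists were chosen with earlier results of these data known. Each of the 10 was reported in every comparison, and from each list at most 4 genes called in most comparisons were named. Some genes of these lists are not reported here. For Chrng and Chrne the 5 genes with the highest Pearson r were named among those with a mean of at least 1 FPKM. Markers checked but not named in the results were endothelial and fibroblast genes, whose sums were 26.8 to 75.8 FPKM and 32.5 to 493 FPKM in muscle.

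Replicate numbers were taken to pair libraries in the cells, where all 6 correlations of deviations between groups were 0.278 to 0.680, and not in muscle, where 2 of 10 were over 0.1 (−0.019 to 0.211). Neither the labels nor the methods give a reason for the pairing. In each cell group the first library was the deeper, at 25170000 to 29570000 reads on genes against 14230000 to 18900000 in the second. The part of depth in the pairing was not tested. Alternatives were other pseudocounts and filters, median-ratio scaling, quantile normalization, a replicate block, only the groups compared, a fold threshold, a term for Xist and each library left out. Median-ratio scaling changed little, with 8181 of all genes called on day 3 against day 0 rather than 8179. The 8 M3 and GFP libraries were not analysed here.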

Additional observations from a re-analysis of the deposited data

How the results depend on the processing

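Of the differences of single genes, 873 of 942 under other settings and 377 of 472 with 1 library left out kept their direction and their side of the threshold. The rest lost a call (27 and 55), gained 1 (37 and 10) or changed sign (5 and 30), and the cause was not tested. The count called on day 1 against day 0 was 1 rather than 0 with a pseudocount of 1 (6.26% of all genes), a filter at 1 FPKM (8.25%) or median-ratio scaling (6.0%). With a log2 fold change of at least 2 also required, the counts were 4 for day 3 and 0 for day 5 against day 0, and 3 each for day 3 against day 1 and day 5 against day 3. With the Xist term they were 0 for day 5 against day 0 (0% of all genes), 2 for day 3 against day 1 (8.17%) and 0 for day 5 against day 3 (0%). With quantile normalization the median of all genes was −0.116 for day 3 against day 0, rather than 0.0075. It gave 3 for day 5 against day 0 (21.9% of all genes), and fitting only the groups compared gave 2 for day 3 against day 1 (16.9%). With a library left out the counts were 4 to 8 (day 3 against day 0), 0 to 2 (day 5 against day 0), 2 to 5 (day 3 against day 1) and 0 to 3 (day 5 against day 3). For Cas9M3 DM3 against Ctrl DM3 the count was 5 with a pseudocount of 1 (3.28% of all genes) or quantile normalization (2.89%), and 8 with only the groups compared (19.1%). The main fit called 1.98% of all genes. With a library left out, the log2 difference of Chrnb1 ran from −2.64 to −2.99. For Ctrl DM3 against Ctrl GM the count was 7 with a pseudocount of 1 (1.84% of all genes), 1 with no filter (0.382%), 5 with quantile normalization (1.48%) and 0 with only the groups compared (0%). The main fit called 1.14% of all genes, and the fits with a library left out are given above.

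With the replicate number as a block, 4 genes were called for Cas9M3 DM3 against Ctrl DM3 and 7 for Ctrl DM3 against Ctrl GM, and all genes called went from 274 to 505 and from 158 to 411. Among the 10 genes in muscle, where the numbers did not pair libraries, the block lost only Lrp4 on day 10 against day 3, and permuting the Chrng to Chrne ratio within replicate numbers gave an exact p of 0.1 across days. Without restriction to replicate numbers, the permutation test of the ratio gave exact p from 0.0201 to 0.0720 across days, and from 0.00952 to 0.133 across cell groups, with a library left out. Over all genes, only the groups compared gave 2637 calls for Cas9M3 DM3 against Ctrl DM3 and 0 for Ctrl DM3 against Ctrl GM, and the Xist term gave 0 for day 1 against day 0, for day 5 against day 0 and for day 5 against day 3.

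Signs changed on the log2 scale with the Xist term for Rapsn (0.24) and Colq (0.29) on day 1 against day 0, and for Dok7 on day 3 against day 1 (−0.28) and day 10 against day 3 (−0.24). With quantile normalization Lrp4 on day 5 against day 3 was 0.078. With a library left out, day 1 against day 0 gave −0.18 to 1.43 for Chrna1 and −0.34 to 0.17 for Rapsn. Day 10 against day 0 gave −0.13 to 0.81 for Chrne, −0.60 to 0.19 for Musk and −0.083 to 0.31 for Lrp4. Dok7 ran from −0.28 to 0.37 on day 3 against day 1, −0.16 to 0.49 on day 5 against day 3 and −0.24 to 0.41 on day 10 against day 3, Lrp4 from −0.051 to 0.040 on day 5 against day 3, and Chrnb1 from −0.29 to 0.095 on day 10 against day 3. Cas9M3 GM against Ctrl GM gave −1.40 to 0.43 for Chrna1, −0.89 to 0.27 for Chrnb1, −1.98 to 1.00 for Chrnd, −2.60 to 0.068 for Chrng, −0.63 to 1.45 for Musk and −0.31 to 0.42 for Lrp4. Cas9M3 DM3 against Cas9M3 GM gave −1.69 to 1.29 for Chrnd, −0.79 to 1.88 for Chrng, −0.89 to 1.19 for Musk and −0.74 to 0.0053 for Dok7.

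Chrne in the cells rested on 0 or 1 read per library, and Chrng in the second Cas9M3 GM library on 4 reads, so their values there are imprecise. With 2 libraries per group, a library left out leaves 1 that is assumed to vary like the other groups.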
